A study of Mus musculus with 8 samples.

Results

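Immediate-early response genes were followed as a set of 10 genes given by symbol: Fos, Fosb, Fosl1, Jun, Junb, Egr1, Egr2, Atf3, Ier3 and Dusp1. The rule uses their symbols and no measured value, and 18193 genes in all were represented on the array. All 10 were found, on 13 probe sets, and Fosl1, Jun and Egr2 had more than 1 each. Each gene was represented by its probe set with the highest mean over the arrays.

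The study grew CT26 cells, an established mouse colon tumour line, and RAW264 cells (RAW here), an established macrophage line of the mouse, either together or alone. There were 4 groups of 2 arrays: RAW in co-culture, RAW alone, CT26 in co-culture and CT26 alone. The labels name no genotype, gene edit or drug in any group. In co-culture RAW cells sat on a transwell insert above CT26 cells in the well, which lets soluble molecules pass while the cells do not touch, and inserts were placed 8 hours after seeding. CT26 cells were released with trypsin and EDTA before lysis in TRIzol, whereas RAW cells were lysed in TRIzol on the insert. Line and harvest therefore cannot be told apart. The experiment was done on 2 occasions, each giving 1 array per group, so p-values measure the spread between samples of 2 experiments.

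Immediate-early genes are transcribed soon after a cell meets a growth factor, cytokine or stress, from factors already present in the cell and without new protein synthesis. Many encode transcription factors: FOS and JUN family proteins pair to form AP-1, and the EGR proteins are zinc-finger factors induced through the MAP kinase pathway and serum response factor. Others, such as Dusp1, encode inhibitors that shut the same pathway down. In macrophages they respond to microbial products and colony-stimulating factors, and in tumour cells to growth factor and Ras signalling. Their transcripts are short-lived.

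Values are log2 expression on the RMA scale, where 1 unit is a factor of 2, and they are compared only within a probe set. Array medians lay between 5.88 and 5.94, and the 40th percentile of an array, 5.21 to 5.28, was taken as the floor. A gene was tested if it lay above the floor in both arrays of at least 1 group, which held for all 10 genes and for 13196 genes in all. Macrophage markers set the lines apart: 12 of 12 were above the floor in every RAW array, with medians of 12.44 to 12.60, against 6 to 9 of 12 and medians of 5.60 to 5.93 in CT26 arrays. Epithelial markers were above the floor for 8 of 10 genes in CT26 and for 5 to 6 of 10 in RAW, but Cdh1 and Vil1, which define epithelium, were under the floor in CT26. Krt8, Epcam, Cldn4 and Elf3 stood at similar levels in both lines. Epithelial medians were 6.08 to 6.38 in CT26 and 5.25 to 5.44 in RAW. Medians of mesenchymal and matrix markers were 7.62 to 8.70 in CT26 and 5.4 to 5.7 in RAW. In bulk RNA, fewer cells of a kind and less transcript per cell cannot be told apart.

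The proximal promoters were searched for elements known from this pathway. Of the 10 genes, 8 were matched to the RefSeq promoter table of build GRCm38.p6 and used here, and Fosl1 had no entry. The promoter of Egr1 is not reported here, so the motif counts cover neither Egr1 nor Fosl1. The 200 bases before the start are printed 5′ to 3′ for Fos, Fosb, Jun and Junb, AP-1 subunits that were called together between the occasions, and for Egr2, which had the largest co-culture difference in RAW. Capitals mark matches on either strand to TGACGT (the core of the cyclic AMP response element), TGANTCA (the AP-1 site), GCGNGGGCG (the EGR site) or the CArG box (bound by serum response factor).
Fos, chr12:85473690-85473889, plus strand: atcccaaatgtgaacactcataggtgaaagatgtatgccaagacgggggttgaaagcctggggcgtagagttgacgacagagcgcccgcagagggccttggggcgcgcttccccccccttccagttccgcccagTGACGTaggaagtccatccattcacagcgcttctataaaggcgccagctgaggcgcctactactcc
Fosb, chr7:19310046-19310245, minus strand: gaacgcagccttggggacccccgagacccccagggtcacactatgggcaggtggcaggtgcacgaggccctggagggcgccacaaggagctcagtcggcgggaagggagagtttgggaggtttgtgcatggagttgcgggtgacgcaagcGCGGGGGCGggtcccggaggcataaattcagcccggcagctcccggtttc
Jun, chr4:95052223-95052422, minus strand: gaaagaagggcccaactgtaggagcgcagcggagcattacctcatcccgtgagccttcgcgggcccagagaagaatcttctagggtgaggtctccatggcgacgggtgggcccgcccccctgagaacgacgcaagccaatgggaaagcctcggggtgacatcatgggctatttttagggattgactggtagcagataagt
Junb, chr8:84978749-84978948, minus strand: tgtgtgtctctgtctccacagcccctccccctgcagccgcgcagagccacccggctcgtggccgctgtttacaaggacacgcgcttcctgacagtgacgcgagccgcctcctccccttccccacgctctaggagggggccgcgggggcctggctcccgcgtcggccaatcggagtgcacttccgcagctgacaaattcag
Egr2, chr10:67537669-67537868, plus strand: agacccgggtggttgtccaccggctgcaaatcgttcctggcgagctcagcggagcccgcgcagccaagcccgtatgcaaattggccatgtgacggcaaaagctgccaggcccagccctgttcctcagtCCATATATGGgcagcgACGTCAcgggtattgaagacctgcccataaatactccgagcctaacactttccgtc
Fos held TGACGT at position -66 from the start, and the Egr2 window held it at -56, next to a CArG box at -72 that does not overlap it. Over the 250 bases searched, TGACGT was found in 4 of the 8 genes, the others being Atf3 at -8 and Dusp1, which has it at -191 and, as a palindrome that reads the same on both strands, from -143. Of 32851 RefSeq windows of the same length, 6.47% held TGACGT. The EGR site was found in Fosb at -50 (4.7% of windows), the CArG box in Egr2 (1.47% of windows), and TGANTCA in none of the 8 genes (6.75% of windows). Jun and Junb held none of the 4 motifs in these windows. Egr2 has 5 annotated windows, 3 of which overlap and share its TGACGT.

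The lines differed in the levels at which they expressed some of these genes. Fos, Atf3 and Dusp1 were higher in RAW, both in co-culture and alone, while Fosl1 and Egr1 were higher in CT26. Of the 10 genes, 5 passed the test in co-culture, 3 higher and 2 lower in RAW, and the same 5 passed when the lines were grown alone. Here and below a gene is called when its adjusted p was under 0.05, from limma's moderated test with Benjamini-Hochberg adjustment over the 13196 genes. Among all genes tested, 34.8% were called between the lines in co-culture and 34.6% alone, so a call between the lines was common. By direction, 17.7% of all genes were higher and 17% lower in RAW in co-culture, and 17% higher and 17.6% lower alone. The median difference of the 10 genes was 0.42 log2 units in co-culture and 0.55 alone, against -0.04 and -0.05 over all genes.

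**Figure D1:**
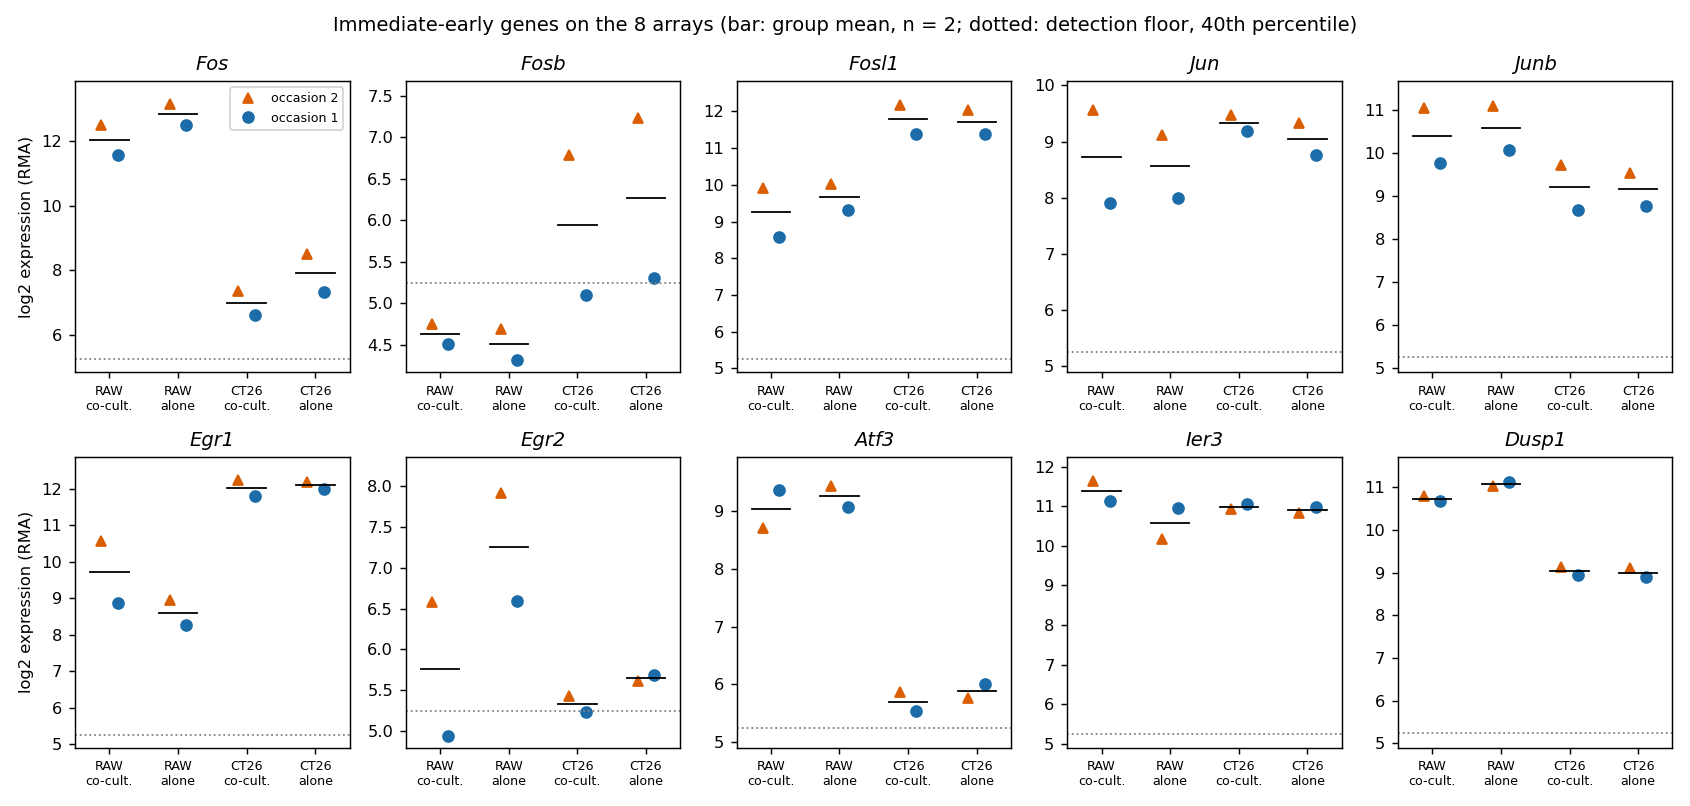
Log2 expression (RMA, vertical axes) of the 10 genes on each of the 8 arrays, by group along the horizontal axis; triangles are occasion 2, circles occasion 1, bars group means (n = 2) and the dotted line the mean floor. Fos, Atf3 and Dusp1 sit higher in RAW and Fosl1 and Egr1 higher in CT26, and the triangles lie above the circles in all 4 groups for Fos, Fosb, Fosl1, Jun, Junb and Egr1. Fosb is under the floor in every RAW array.

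Fos encodes the prototype FOS subunit of AP-1. On occasion 2 it stood at 12.52 in RAW co-culture and 13.17 in RAW alone, and on occasion 1 at 11.58 in RAW co-culture and 12.52 in RAW alone. In CT26 it stood at 7.35 in co-culture and 8.51 alone on occasion 2, and at 6.62 in co-culture and 7.33 alone on occasion 1. Every RAW array was far above every CT26 array, and within each occasion both lines had less Fos in co-culture than alone. The difference between the lines was 5.07 ± 0.50 log2 units in co-culture (SE, 33.5-fold, adjusted p = 0.000259, limma) and 4.93 ± 0.50 alone (30.4-fold, adjusted p = 0.000296, limma).

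Fosb, a close relative of Fos, was above the floor in 3 CT26 arrays and in no RAW array. It stood at 4.74 in RAW co-culture and 4.69 in RAW alone on occasion 2, and at 4.51 in RAW co-culture and 4.32 in RAW alone on occasion 1, all under the floor. In CT26 it stood at 6.78 in co-culture and 7.23 alone on occasion 2, and at 5.10 in co-culture and 5.30 alone on occasion 1. The CT26 arrays thus split by occasion, with those of occasion 1 under the floor in co-culture and just above it alone. Fosb passed the filter through CT26 alone. Its difference between the lines was -1.31 ± 0.71 in co-culture and -1.76 ± 0.71 alone, and it was not called in the fit without a block. No fold is given and no test of the lines is read for Fosb, since it entered through the group where it is high and RAW had no level above the floor.

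Fosl1, a FOS family member that lacks the strong activation domain of Fos, ran the other way from Fos. It stood at 9.93 in RAW co-culture and 10.01 in RAW alone on occasion 2, and at 8.58 in RAW co-culture and 9.32 in RAW alone on occasion 1. CT26 had 12.18 in co-culture and 12.03 alone on occasion 2, and 11.40 both in co-culture and alone on occasion 1. All CT26 arrays exceeded all RAW arrays. RAW was lower by 5.81-fold in co-culture (log2 difference -2.54 ± 0.50, adjusted p = 0.00743, limma) and by 4.14-fold alone (-2.05 ± 0.50, adjusted p = 0.0185, limma). The call alone was lost without the occasion 1 array of RAW alone (-1.70, adjusted p = 0.0986) and without the occasion 2 array of CT26 alone (-1.73, adjusted p = 0.107). The other Fosl1 probe set gave -2.85 in co-culture and -2.24 alone, and both differences were called when every probe set was fitted on its own.

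Jun and Junb encode the JUN subunits, of which Jun is the stronger activator. Jun stood at 9.56 in RAW co-culture and 9.12 in RAW alone on occasion 2, and at 7.91 in RAW co-culture and 8.00 in RAW alone on occasion 1. CT26 had 9.47 in co-culture and 9.34 alone on occasion 2, and 9.18 in co-culture and 8.77 alone on occasion 1. RAW and CT26 overlapped, and the occasions lay further apart in RAW. The line difference of Jun was -0.59 ± 0.58 in co-culture and -0.49 ± 0.58 alone (adjusted p = 0.489 and 0.568, limma). With a block for the occasion in each line it passed the test, at adjusted p = 0.00927 in co-culture and 0.02 alone.

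Junb stood at 11.05 in RAW co-culture and 11.09 in RAW alone on occasion 2, and at 9.77 in RAW co-culture and 10.09 in RAW alone on occasion 1. CT26 had 9.73 in co-culture and 9.53 alone on occasion 2, and 8.68 in co-culture and 8.78 alone on occasion 1. All RAW arrays lay above all CT26 arrays, though the lowest RAW array and the highest CT26 array differed little. The line difference was 1.20 ± 0.57 in co-culture (adjusted p = 0.159, limma) and 1.43 ± 0.57 alone (adjusted p = 0.101, limma). With the occasion as a shared block Junb was called, at adjusted p = 0.000275 in co-culture and 0.000114 alone.

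Egr1, a zinc-finger factor induced by growth factors, stood at 10.56 in RAW co-culture and 8.94 in RAW alone on occasion 2, and at 8.86 in RAW co-culture and 8.26 in RAW alone on occasion 1. CT26 had 12.23 in co-culture and 12.19 alone on occasion 2, and 11.82 in co-culture and 12.01 alone on occasion 1. CT26 arrays were all above RAW arrays and close to each other, while the RAW co-culture array of occasion 2 stood nearest to them. RAW was 4.97-fold lower in co-culture (-2.31 ± 0.52, adjusted p = 0.0129, limma) and 11.3-fold lower alone (-3.50 ± 0.52, adjusted p = 0.00204, limma). Without the occasion 1 array of RAW co-culture the first value was -1.47 (adjusted p = 0.02), and without the occasion 2 array of CT26 co-culture it was -2.11 and no longer called (adjusted p = 0.07).

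Egr2, the family member that macrophages induce on differentiation and activation, stood at 6.58 in RAW co-culture and 7.91 in RAW alone on occasion 2, and at 4.95 in RAW co-culture, under the floor, and 6.59 in RAW alone on occasion 1. CT26 had 5.43 in co-culture and 5.62 alone on occasion 2, and 5.24 in co-culture and 5.69 alone on occasion 1, all near the floor. The RAW alone arrays were above every CT26 array, but the RAW co-culture arrays lay on either side of them. The line difference was 0.43 ± 0.58 in co-culture (adjusted p = 0.621, limma) and 1.59 ± 0.58 alone (adjusted p = 0.0756, limma). It was called alone with the shared block (adjusted p = 0.0138), and in co-culture with a block per line (adjusted p = 0.0145). The dimmer Egr2 probe set gave 0.60 ± 0.46 in co-culture and 1.62 ± 0.46 alone. It was under the floor in every CT26 array and passed the filter through RAW alone. No test of the lines is therefore read for this probe set.

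Atf3, a stress-induced factor that can repress AP-1 and inflammatory genes, stood at 8.71 in RAW co-culture and 9.44 in RAW alone on occasion 2, and at 9.38 in RAW co-culture and 9.08 in RAW alone on occasion 1. CT26 had 5.86 in co-culture and 5.77 alone on occasion 2, and 5.54 in co-culture and 6.01 alone on occasion 1. The lines were far apart and neither culture nor occasion ordered the arrays. RAW was 10.2-fold higher in co-culture (3.35 ± 0.26, adjusted p = 7.06e-05, limma) and 10.3-fold higher alone (3.37 ± 0.26, adjusted p = 6.81e-05, limma).

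The remaining genes encode feedback and survival proteins. Dusp1, a phosphatase that inactivates MAP kinases, stood at 10.80 in RAW co-culture and 11.03 in RAW alone on occasion 2, and at 10.68 in RAW co-culture and 11.13 in RAW alone on occasion 1. CT26 had 9.13 in co-culture and 9.11 alone on occasion 2, and 8.94 in co-culture and 8.90 alone on occasion 1. Its arrays lay close together within every group, with SDs of 0.07 to 0.15. RAW was 3.25-fold higher in co-culture (1.70 ± 0.13, adjusted p = 8.44e-05, limma) and 4.21-fold higher alone (2.07 ± 0.13, adjusted p = 2.96e-05, limma).

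Ier3, a stress-inducible protein that modulates apoptosis and ERK signalling, stood at 11.63 in RAW co-culture and 10.17 in RAW alone on occasion 2, and at 11.14 in RAW co-culture and 10.96 in RAW alone on occasion 1. CT26 had 10.93 in co-culture and 10.82 alone on occasion 2, and 11.04 in co-culture and 10.98 alone on occasion 1. The CT26 arrays fell inside the range of the RAW arrays. The line difference was 0.40 ± 0.28 in co-culture and -0.33 ± 0.28 alone (adjusted p = 0.322 and 0.41, limma).

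Over the 10 genes, the call counts between the lines were 7 in co-culture and 8 alone with the shared block, and 9 in both with a block per line, each count including Fosb. Over all genes those blocks called 52.1% and 58% in co-culture, and 52.9% and 58.6% alone.

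**Figure D2:**
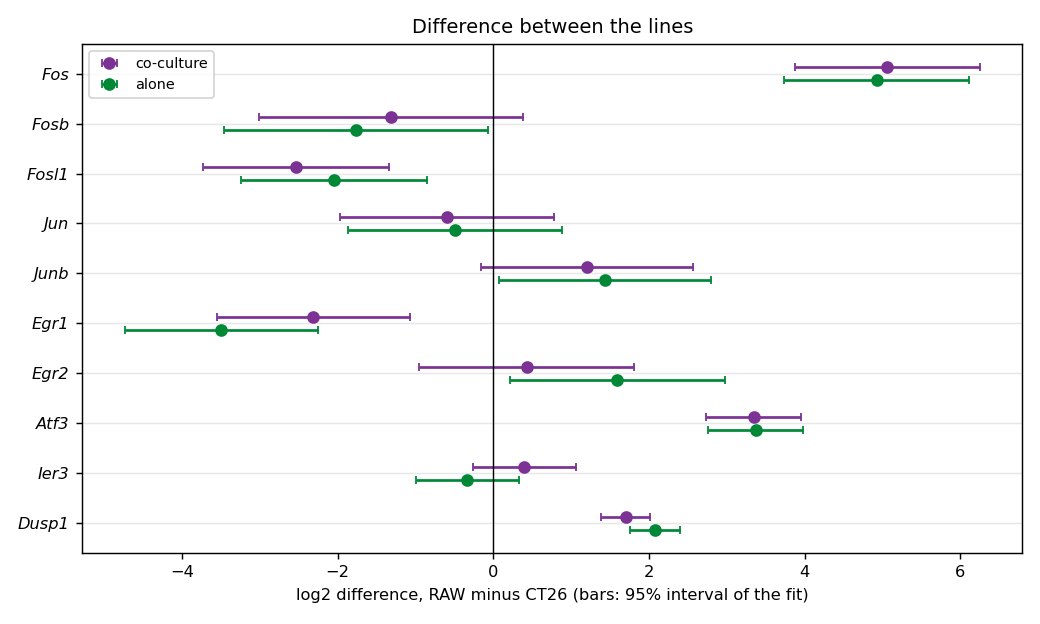
Log2 difference RAW minus CT26 (horizontal axis) for each gene, in co-culture and alone, with the 95% interval of the limma fit without a block. Fos, Atf3 and Dusp1 lie right of 0 and Fosl1 and Egr1 left of it in both cultures.

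In RAW cells the next question was whether growth above CT26 cells altered these genes. None of the 10 passed the test (limma, adjusted p from 0.743 to 1), where 0.25% of all genes did (0.167% higher and 0.0834% lower). At an unadjusted p under 0.05, 694 genes of all and 3 of the 10 passed: Egr2, Ier3 and Dusp1. Since the replicate numbers in the labels were taken as occasions, the same contrast was also fitted with a block per line. It called 3 of the 10, Egr1 higher and Fos and Egr2 lower in co-culture, against 3.56% of all genes. The block shared by the lines called none of the 10, against 1.11% of all genes.

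Egr2 had the largest difference. Its 2 arrays in co-culture were both below its 2 arrays alone, with differences of -1.33 log2 units on occasion 2 and -1.64 on occasion 1, and the groups stood apart by almost nothing, 6.58 against 6.59 at their nearest. The co-culture array of occasion 1 was under the floor, so no fold is given. The fitted change was -1.48 ± 0.58 log2 units (SE, adjusted p = 0.89, limma), with an adjusted p of 0.194 under the shared block and 0.00121 under the block per line. Leaving out single arrays moved it between -2.30 and -0.67. The dimmer Egr2 probe set gave -1.19 ± 0.46.

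Egr1 went the other way in the same cells. It was higher in co-culture by 1.62 log2 units on occasion 2 and by 0.60 on occasion 1, and the groups overlapped. The change was 1.11 ± 0.52 (2.16-fold, adjusted p = 1, limma), with an adjusted p of 0.232 under the shared block and 0.0431 under the block per line. Leaving out single arrays moved it between 0.26 and 1.96.

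Fos was lower in RAW co-culture, with differences of -0.66 log2 units on occasion 2 and -0.94 on occasion 1. The change was -0.80 ± 0.50 (adjusted p = 1, limma), with an adjusted p of 0.0606 under the shared block and 0.0239 under the block per line. Leaving out single arrays moved it between -1.27 and -0.33. At 2 decimals the higher co-culture array and the lower alone array had the same value.

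Dusp1 and Ier3 also kept 1 sign on both occasions. Dusp1 was lower in RAW co-culture, with differences of -0.24 on occasion 2 and -0.45 on occasion 1 (-0.34 ± 0.13, adjusted p = 0.89, limma). Ier3 was higher by 1.46 on occasion 2 and by 0.18 on occasion 1 (0.82 ± 0.28, adjusted p = 0.743, limma), and most of the difference came from occasion 2. Neither was called with either block. Fosl1 and Junb were lower in co-culture on both occasions, Fosl1 at -0.09 on occasion 2 and -0.74 on occasion 1, and Junb at -0.05 on occasion 2 and -0.31 on occasion 1. Fosb was under the floor in RAW. Jun (0.44 on occasion 2, -0.09 on occasion 1) and Atf3 (-0.73 on occasion 2, 0.30 on occasion 1) had opposite signs on the occasions. The other Jun probe set gave -0.22 ± 0.41, against 0.18 ± 0.58 for the one used here.

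Counted by direction, 3 genes were higher in RAW co-culture on both occasions, where 32.5% of all genes were, and 5 were lower on both, where 29.1% were. The 3 include Fosb, whose RAW values are under the floor. The median change of the 10 genes was -0.20, against 0.01 for all genes. Egr1 and Egr2 had opposite signs on both occasions, as did Ier3 and Dusp1.

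**Figure D3:**
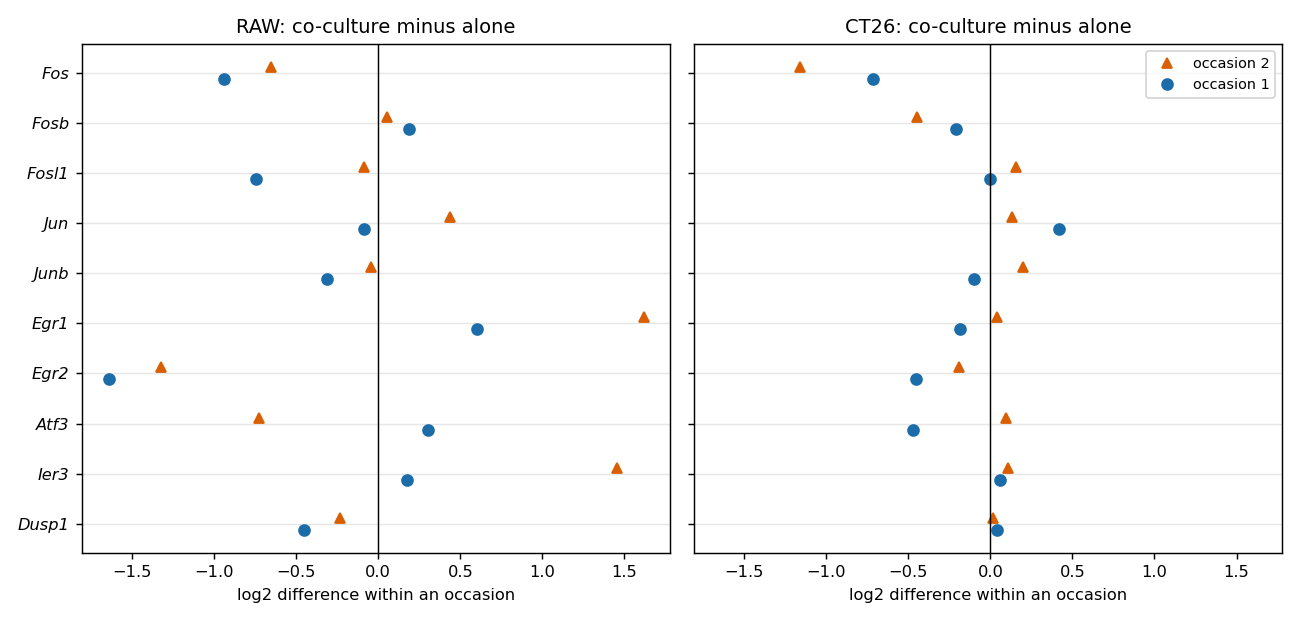
Log2 difference co-culture minus alone within each occasion (horizontal axis) for the 10 genes, in RAW (left panel) and CT26 (right panel); triangles are occasion 2 and circles occasion 1. In RAW both points of Egr2 and Fos lie left of 0 and both points of Egr1 and Ier3 right of it, while in CT26 Fos lies furthest from 0.

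In CT26 cells grown under RAW cells, no gene of the 10 and 0% of all genes passed the test (limma, with or without a block), while without a block 107 genes of all were under 0.05 before adjustment and none of the 10 was. Fos had the largest change among the 10, lower in co-culture with differences of -1.16 log2 units on occasion 2 and -0.71 on occasion 1. This gave -0.94 ± 0.50 with a 95% interval from -2.12 to 0.25 (adjusted p = 1, limma), and an adjusted p of 0.199 with a block per line, and leaving out single arrays moved it between -1.53 and -0.35. Fosb (-0.45 on occasion 2, -0.21 on occasion 1) and Egr2 (-0.19 on occasion 2, -0.45 on occasion 1) were lower on both occasions as well. Jun was higher by 0.13 on occasion 2 and by 0.42 on occasion 1.

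The other changes in CT26 were small. Egr1 changed by -0.07 with a 95% interval from -1.31 to 1.17, Fosl1 by 0.08 (-1.12 to 1.27) and Junb by 0.05 (-1.31 to 1.41). Dusp1 changed by 0.03 (-0.29 to 0.35), Atf3 by -0.19 (-0.80 to 0.42) and Ier3 by 0.08 (-0.58 to 0.74). These intervals come from the fit without a block, whose standard errors include the shift between the occasions. With a block per line the standard error was 0.11 for Junb, 0.15 for Fosl1 and 0.22 for Egr1, against 0.57, 0.50 and 0.52 without one. In all, 3 genes were higher on both occasions and 3 lower, where 23.8% and 30.1% of all genes were.

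The co-culture effect in RAW was then set against that in CT26. None of the 10 differed (limma, adjusted p = 1 for each), where 0.00758% of all genes did and 328 genes had an unadjusted p under 0.05. With a block per line Egr2 was called, at -1.16 log2 units (limma SE 0.82 without a block, adjusted p = 0.0297 with it, and -1.98 to -0.35 on leaving out single arrays), against 0.743% of all genes. The shared block called none of the 10, against 0.0834% of all genes. Egr1 gave 1.18 ± 0.74 and, with a block per line, an adjusted p of 0.197, and leaving out single arrays moved it between 0.33 and 2.03. For Fos, which was lower in co-culture in both lines, the effects differed by 0.14 with a 95% interval from -1.54 to 1.82.

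The arrays of the 2 occasions were compared next, across all 4 groups. Fos, Fosb, Fosl1, Jun and Junb all rose on occasion 2 relative to occasion 1 (5 of 10 called, limma with 1 occasion term shared by the 4 groups), and no gene of the 10 fell. Among all genes, 28.1% were called, 16.8% higher and 11.3% lower. The median shift of the 10 genes was 0.81 log2 units, against 0.01 for all genes. The 3′ minus 5′ difference of control probe sets is a measure of RNA integrity. For Gapdh it moved with the occasion as well, at -0.16 to -0.12 on occasion 2 and -0.23 to -0.18 on occasion 1. For Actb the occasions overlapped, at 0.108 to 0.235 on occasion 2 and 0.044 to 0.155 on occasion 1. The part of RNA integrity in the shift was not tested.

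Junb rose by 1.28 in RAW co-culture, 1.01 in RAW alone, 1.05 in CT26 co-culture and 0.75 in CT26 alone. The shared shift was 1.02 ± 0.09 (SE, 2.03-fold, adjusted p = 0.0014, limma). Fos rose by 0.94 in RAW co-culture, 0.65 in RAW alone, 0.74 in CT26 co-culture and 1.18 in CT26 alone, a shared shift of 0.88 ± 0.10 (1.84-fold, adjusted p = 0.00213, limma). Both genes were thus higher on occasion 2 in all 4 groups, at very different levels of Fos in the lines.

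Fosl1 rose by 1.35 in RAW co-culture, 0.69 in RAW alone, 0.78 in CT26 co-culture and 0.63 in CT26 alone (0.86 ± 0.12, adjusted p = 0.00451, limma). Its other probe set gave 1.11 ± 0.14. Jun rose by 1.66 in RAW co-culture, 1.13 in RAW alone, 0.29 in CT26 co-culture and 0.57 in CT26 alone (0.91 ± 0.21, adjusted p = 0.0207, limma). The Jun call was lost without the RAW alone pair (0.84, adjusted p = 0.0719) and with the mean of its probe sets (0.68, adjusted p = 0.0603), the other probe set alone giving 0.45 ± 0.23. Fosb was called at 1.05 ± 0.30 (adjusted p = 0.0396, limma), a value carried by CT26, and the call was lost without the CT26 alone pair (0.77, adjusted p = 0.109) or the CT26 co-culture pair (0.84, adjusted p = 0.116).

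Egr1 was higher on occasion 2 in all 4 groups as well, by 0.75 ± 0.23, but was not called (adjusted p = 0.0522, limma). It passed with a variance trend (adjusted p = 0.0339) and with a filter at the 60th percentile (adjusted p = 0.0466). Without the CT26 alone pair Egr1 was called at 0.93 (adjusted p = 0.0443), and without the RAW co-culture pair its shift was 0.43 (adjusted p = 0.0517). Egr2 gave 0.77 ± 0.28 (adjusted p = 0.0882, limma), and its dimmer probe set, under the floor in every CT26 array, 0.20 ± 0.32. Without the CT26 alone pair Egr2 was called at 1.05 (adjusted p = 0.0423), and without the RAW co-culture pair its shift was 0.48 (adjusted p = 0.253). Fitting the occasion separately in each line called both, at 0.00884 for Egr1 and 0.000857 for Egr2, and 7 of the 10 genes in all, against 38.9% of all genes. Atf3, Ier3 and Dusp1 shifted by -0.06, -0.15 and 0.11 and were not called under either fit. In all, 6 of the 10 genes were higher in all 4 groups, where 24.9% of all genes were, and 0 were lower in all 4, where 21.8% were. The 6 include Fosb, whose RAW values are under the floor.

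**Figure D4:**
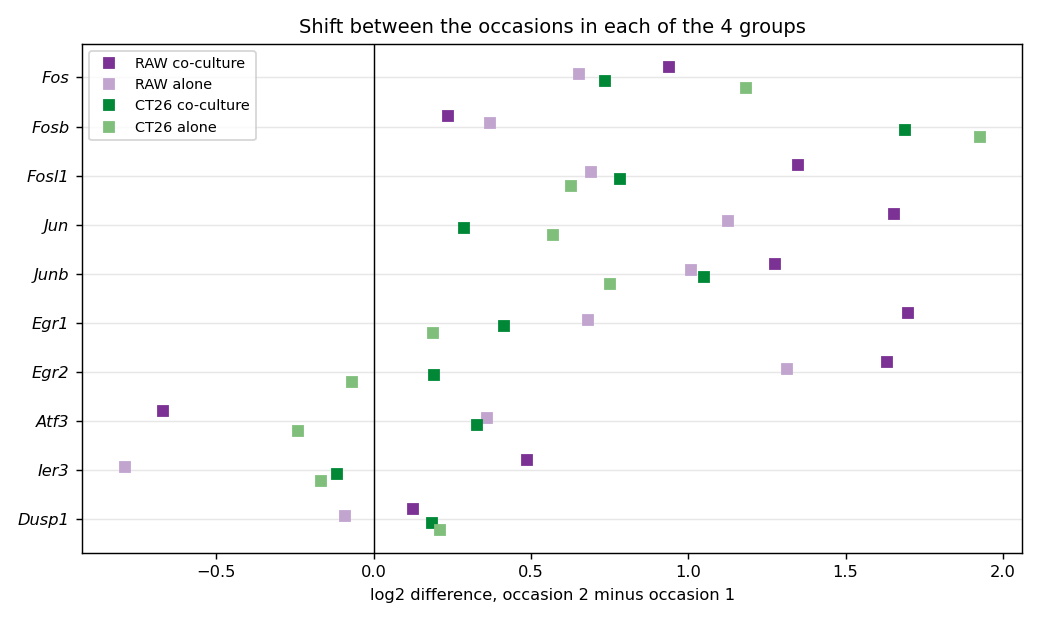
Log2 difference occasion 2 minus occasion 1 (horizontal axis) for each gene in the 4 groups, 1 square per pair of arrays. All 4 squares lie right of 0 for the FOS and JUN genes and Egr1, Fosb lies furthest right in CT26, Egr2 lies far right in RAW and near 0 in CT26, and Atf3, Ier3 and Dusp1 scatter around 0. The RAW squares of Fosb come from values under the floor.

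The lines shared some of these shifts and not others. Within RAW, 6 genes rose, namely Fos, Fosl1, Jun, Junb, Egr1 and Egr2, by 0.79 to 1.47 log2 units (limma, adjusted p from 0.00109 to 0.00799), where 18.1% of all genes rose. Within CT26, 4 rose, namely Fos at 0.96, Fosb at 1.81, Fosl1 at 0.71 and Junb at 0.90, where 13.2% of all genes rose. The test of the difference itself called 2 of the 10 genes, against 2.04% of all genes (1.3% with a positive and 0.735% with a negative RAW minus CT26 difference). Both reach the floor in some arrays, as given above. Egr2 shifted by 1.63 in RAW co-culture and 1.31 in RAW alone, against 0.19 in CT26 co-culture and -0.07 in CT26 alone, a difference of 1.41 ± 0.16 (adjusted p = 0.0177, limma). The dimmer Egr2 probe set gave 1.53 ± 0.21, but it was under the floor in every CT26 array, where no shift could be seen. Fosb shifted by 0.24 in RAW co-culture and 0.37 in RAW alone, under the floor, against 1.69 in CT26 co-culture and 1.93 in CT26 alone, a difference of -1.50 ± 0.14 (adjusted p = 0.0154, limma). Since no RAW array of Fosb was above the floor, RAW could show no shift of it, and the call is not read as a difference between the lines.

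Jun gave 0.96 ± 0.20 (adjusted p = 0.0668, limma) and Egr1 0.89 ± 0.30 (adjusted p = 0.199, limma), both larger in RAW. Without the RAW alone pair both were called as well, at 1.23 (adjusted p = 0.0153) for Jun and 1.40 (adjusted p = 0.0101) for Egr1. Without the RAW co-culture pair neither was, at 0.70 (adjusted p = 0.0872) for Jun and 0.38 (adjusted p = 0.282) for Egr1. For Fos and Junb the shifts differed by -0.17 (95% interval -0.60 to 0.27) and 0.24 (-0.13 to 0.62).

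Across the 8 arrays, with each line centred on its own mean, the JUN genes and Fosl1 moved most alike. Pearson's r was 0.966 between Fosl1 and Junb, 0.876 between Jun and Junb and 0.848 between Fosl1 and Jun, and it was lowest, -0.693, between Atf3 and Ier3. The median over the 45 pairs of genes was 0.396. These arrays share 2 occasions and 2 lines, so the values describe the pattern and carry no test. The genes outside the set most like its mean were Zfp62 (r = 0.995), Chic2 (0.993), Rnf123 (0.993), Zfp282 (0.992) and Dnaaf5 (0.99). Most like Fos itself were B830008H07Rik (0.99), Borcs8 (0.978) and Gask1b (0.974).

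Other genes of the same pathway were read from lists. Of 33 further immediate-early genes tested, 0 were called in either co-culture contrast (limma), against 0.25% of all genes in RAW and 0% in CT26. Their medians were 0.11 in RAW and 0.03 in CT26. At an unadjusted p under 0.05 there were 2 in RAW and 0 in CT26, against 694 and 107 of all 13196 genes. With a block per line 2 were called in RAW and 0 in CT26, against 3.56% and 0% of all genes. Klf4, a Krüppel-like factor, was lower in RAW co-culture (-0.78 ± 0.30, limma adjusted p = 0.89 without a block and 0.0152 with one per line). None of 17 feedback regulators, 17 upstream kinases and SRF-side factors, 14 bZIP partners, 7 genes described as AP-1 targets and 7 heat-shock genes was called in either line (limma without a block). At an unadjusted p under 0.05 these lists held 1, 1, 0, 1 and 2 genes in RAW, and in CT26 1 bZIP partner alone. With a block per line, 1 feedback regulator, 1 bZIP partner and 1 heat-shock gene were called in RAW. The counts of these lists stand against the same numbers and shares over all genes.

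Between the occasions, 10 of the 33 immediate-early genes rose and 2 fell, where 16.8% of all genes rose and 11.3% fell, and the counts of the lists below stand against the same shares. Klf2, a Krüppel-like factor, rose by 1.44 ± 0.21 (adjusted p = 0.00429, limma). Nr4a2, an orphan nuclear receptor, fell by 0.43. Among feedback regulators 6 of 17 rose and 0 fell, with Trib1, a pseudokinase, at 1.42 and Zfp36, which promotes mRNA decay, at 1.02. Of the bZIP partners, 6 of 14 rose and 1 fell, with Cebpb at 1.00 and Ddit3 at -0.65. Of the upstream genes, 6 of 17 rose, among them Mrtfa, a coactivator of serum response factor, at 1.07, and 1 fell, the kinase gene Rps6ka3, at -0.50. Of the AP-1 target genes 1 of 7 rose, Plau, at 0.80, a gene near the floor in CT26. Of the heat-shock genes 1 of 7 rose, Bag3, at 0.38, and 1 fell, Hspa1b, at -0.28.

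Between the lines grown alone, 3 of 33 other immediate-early genes were higher and 15 lower in RAW, with a median of -0.71, where 17% of all genes were higher and 17.6% lower. Ccn2, a matrix-associated signalling protein, is among the 15 lower genes, but both RAW alone arrays were under the floor. It passed the filter through CT26, so no test of the lines is read for it. Hbegf, an EGF receptor ligand, was lower as well (-5.82 ± 0.33 log2 units, adjusted p = 1.5e-05, limma). Mcl1, a survival protein of the BCL family, was higher by 0.96 ± 0.13. Of 17 feedback regulators, 2 were higher and 6 lower, with Spred1 at 2.03, Spry2 at -3.52 and Dusp6 at -2.59, the last an ERK phosphatase. Of the AP-1 target genes, Timp1, a protease inhibitor, differed by -6.51 and Plau, a urokinase, was higher in RAW, with 1 of the 2 CT26 alone arrays under the floor. In co-culture, where 17.7% of all genes were higher and 17% lower, the counts were 3 higher and 17 lower among the immediate-early genes, and 2 higher and 5 lower among the feedback regulators. The 17 again include Ccn2, with both RAW co-culture arrays under the floor.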

How the data were processed

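Each of the 8 samples was hybridised to 1 Affymetrix array from 5 µg of total RNA. The deposited log2 values were produced by the authors using RMA from affy (named in the submitters' processing notes), with versions not given in the sources used here. Of 45101 probe sets, 64 controls were dropped. By the platform annotation 34945 carried 1 gene symbol, 932 several and 9160 none. The probe set with the highest mean stood for each of 18193 genes. Named were all 10 members and, from other lists, at most 3 called genes per direction with the largest change, or the 1 or 2 with the largest statistic. The members and lists were chosen with earlier results of these data known.

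limma 3.58.1 (R 4.3.3) fitted 4 group means to the 8 arrays, leaving 4 residual degrees of freedom, or 3 with an occasion term common to the lines and 2 with a term for each line. Two-sided p-values of 13196 genes were adjusted by Benjamini-Hochberg, with a threshold of 0.05. The fit was tested on simulated data. Replicate numbers in the labels were taken to stand for the 2 occasions, since the labels give only the number. Arrays of the same number deviated together from their group means. The correlations were 0.765 in RAW, 0.754 in CT26 and 0.484 to 0.561 between the lines. Such arrays were treated as pairs in the occasion contrasts and in the fits with a block. The main fit of the co-culture and line contrasts had no block and did not pair them. The near-equal distribution of all arrays would hide a change in total RNA per cell, and RMA compresses low signals. Precision is limited by the number of arrays. Alternatives were the blocks, the mean of a gene's probe sets, each probe set on its own (added after seeing the data), cyclic loess, no filter or a filter at the 60th percentile, a variance trend, the arrays of 1 line, and leaving out each array. Of the upstream list, 17 of 22 genes had a probe set with 1 symbol, of the bZIP list 14 of 15, and of the AP-1 targets 8 of 10.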

Additional observations from a re-analysis of the deposited data

Results flagged for a closer look

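The test of the difference between the occasion shifts of the lines called 2 of the 10 genes, against 2.04% of all genes. Egr2 shifted more in RAW than in CT26, by 1.41 ± 0.16 log2 units (adjusted p = 0.0177, limma), with both RAW pairs above both CT26 pairs. Fosb gave -1.50 ± 0.14 (adjusted p = 0.0154, limma), with all RAW arrays under the floor, where no shift could be seen. Its call is not read as a difference between the lines. Egr2 was under the floor in the co-culture arrays of occasion 1 in both lines and near it in the other CT26 arrays, and the part of this in the difference was not tested.

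For 2 genes the co-culture effect kept 1 sign on both occasions within each line, and the signs of the lines were opposite. Fosb was higher in co-culture in RAW and lower in CT26, a difference of 0.45 ± 1.01 (adjusted p = 1, limma), with RAW under the floor. Dusp1 was lower in co-culture in RAW and hardly changed in CT26, at 0.02 on occasion 2 and 0.04 on occasion 1. The difference was -0.37 ± 0.19 (adjusted p = 1, limma). Neither difference passed the test.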

How the results depend on the processing

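The counts of called genes among the 10 moved with the replicate block. With a block per line they were 3 for co-culture in RAW, 1 for the difference between the co-culture effects, and 9 for RAW against CT26 in both cultures. With the block shared by the lines the count for RAW against CT26 alone was 8. The standard error of Egr2 in RAW co-culture was 0.11 with a block per line and 0.58 without one. With a filter at the 60th percentile the count for the difference between the occasion shifts was 0, since Fosb and Egr2 left the test and 8 genes remained, and leaving out 1 array gave 2 to 4 for it, the 4 being reached without either array of RAW alone. The count in CT26 co-culture was 0 in every setting run. Of 1096 single values under the alternatives, 1051 kept their side of the threshold, 35 gained a call, 14 of them under the block per line, and 10 lost one. No called value changed sign.

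Over all genes, the calls in RAW co-culture were 33 without a block, 146 with the shared block, 470 with the block per line and 4 from RAW arrays alone, and between 2 and 7 without 1 array of RAW alone, RAW co-culture or CT26 alone. RAW against CT26 had 4563 calls alone (6978 shared block, 7735 per line) and 4587 in co-culture (7652 per line). The difference between the co-culture effects had 1 (11 shared, 98 per line, 4 with a variance trend). The occasion shift had 3707 calls, and 2169 to 2353 without an array of either co-culture, and its difference between the lines 269 (609 with a variance trend, 98 to 105 without a CT26 array). With 2 arrays a group, values near the floor, as for Fosb and Egr2, understate differences.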

Other observations

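The shift between occasions also differed between the lines for other immediate-early genes. Of 33 tested, the RAW minus CT26 difference was called positive for 3 and negative for 3 (limma), where 1.3% and 0.735% of all genes were. Fosl2, another FOS family gene, gave a difference of 1.12 ± 0.16 (adjusted p = 0.0267, limma), and Ptgs2, the inducible cyclooxygenase, 1.08 ± 0.15 (adjusted p = 0.0272, limma). Nfkbiz, a nuclear regulator of NF-κB target genes, gave -1.31 ± 0.23 (adjusted p = 0.0427, limma), and Tnfaip3, an inhibitor of NF-κB signalling, -1.12 ± 0.16 (adjusted p = 0.0288, limma). Both fell in RAW from occasion 1 to occasion 2. In RAW alone Nfkbiz went from 9.8 to 8.2 and Tnfaip3 from 9.2 to 8.0. Of 17 feedback regulators 1 was called, Dusp5, a phosphatase of nuclear ERK, at 1.16 ± 0.20 (adjusted p = 0.0426, limma). None of the 14 bZIP partners, 17 upstream genes, 7 AP-1 targets or 7 heat-shock genes was called (limma), with 7, 3, 2 and 1 of them at an unadjusted p under 0.05. Over all 13196 genes, 2357 were under 0.05 before adjustment.

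In the heat-shock list, Hspa1b, which encodes an inducible HSP70 chaperone, was lower in RAW co-culture (-0.85 ± 0.18, adjusted p = 0.285, limma, and 0.0103 with a replicate block shared by the lines).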
